A study of Saccharomyces cerevisiae with 4 samples.

Results

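The B-type cyclin genes CLB1, CLB2, CLB3, CLB4 and CLB5 of budding yeast, Saccharomyces cerevisiae, were followed across wild type and 3 RNA exosome mutants. They were taken by gene symbol from 16 GO-term tables of mitotic and microtubule genes, in which all 5 had values, out of 130 distinct features with values. CLB4 was listed in 2 tables with identical values and was counted once. The wild type (WT) was strain BJ2664. The mutants were mtr3-1 (strain T208), with a lesion in a subunit of the exosome ring, mtr4-1 (strain T188), with a lesion in an RNA helicase that serves the nuclear exosome, and dis3mtr (strain T186, also rrp44-1 or mtr17-1), with a lesion in the catalytic subunit. Every culture, WT included, was grown in rich medium (YPD) at 30 °C until its OD600 was 0.4 and then shifted to 37 °C for 2 h before harvest. Poly(A)-selected RNA was sequenced from 1 library per genotype.

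Each genotype was a single strain and a single library, so strain background and mutation cannot be told apart, and no difference below has a replicate error or a test. The values are the authors' normalized units, and the sources used here give neither the normalization nor the depth. Levels of different genes were therefore not ranked against each other, and each gene was compared across libraries. The transcripts of the mutated exosome genes are not analysed here.

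B-type cyclins bind and activate the cyclin-dependent kinase Cdc28 and give it its order of work: CLB5 and its relative CLB6 act in DNA replication, CLB3 and CLB4 in S phase and early mitosis, where they help to build the spindle, and CLB1 and CLB2 in entry into and passage through mitosis. The proteins are destroyed in the course of mitosis and its exit by the anaphase-promoting complex (APC/C) with its activators Cdc20 and Cdh1. Their transcripts are also periodic: CLB1 and CLB2 belong to the gene cluster switched on in G2 and M phase by Mcm1, Fkh2 and Ndd1, whereas CLB5 peaks at the start of S phase. In RNA from a whole culture, fewer cells in a phase and less transcript per cell cannot be told apart.

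The genes form pairs of relatives, CLB1 with CLB2 and CLB3 with CLB4, and short reads could in principle be assigned to the wrong relative. Libraries were read for 36 cycles and carried a barcode of 3 bases, which leaves up to 33 bases of insert if the barcode was read in the same cycles. In the R64 reference genome (RefSeq), the coding sequences of CLB1 and CLB2 were 68.5% identical over 1370 aligned bases, and their longest shared run was 17 bases. CLB3 and CLB4 were 64.8% identical over 1243 aligned bases, with a longest shared run of 15 bases. The most alike 33-base windows of each pair are shown because they are the places where a read could most easily be misplaced. Capitals mark the bases that differ within a pair.
CLB1, chr7:704200-704232, plus strand, R64: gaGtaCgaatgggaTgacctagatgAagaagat
CLB2, chr16:772277-772309, plus strand, R64: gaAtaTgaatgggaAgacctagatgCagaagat
CLB3, chr4:177411-177443, plus strand, R64: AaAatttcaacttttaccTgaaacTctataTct
CLB4, chr12:562763-562795, plus strand, R64: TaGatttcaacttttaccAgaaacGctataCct

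These windows matched at 29 of 33 bases for CLB1 and CLB2 and at 28 of 33 for CLB3 and CLB4. None of the 1384 words of 33 bases in CLB1 was found in CLB2, either exactly or with up to 3 mismatches, and the same held for the 1252 words of CLB3 searched in CLB4. Every 33-base word of the 5 coding sequences occurred exactly once in the R64 genome. By sequence, exact 33-base reads from the coding regions can therefore be told apart in this reference. The sources used here do not say how the authors treated reads matching several places, and the sequences of these strains may differ from the reference.

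Position adds a second relation. Per the authors' listing on sacCer2, CLB2 lies at 771 to 773 kb of chromosome 16 and CLB5 at 773 to 775 kb, and in R64 these neighbours run towards each other with 746 bases between their coding ends. CLB1, listed at 703 to 705 kb of chromosome 7, faces CLB6 in the same way at 307 bases. CLB6 was not among the features with values. The labels do not state whether the libraries kept strand, so where transcripts from facing genes overlap, their reads may not have been separable. CLB3 was listed at 176 to 178 kb of chromosome 4. CLB4 was listed on chromosome 7 from 562 to 562 kb, whereas R64 has its open reading frame YLR210W on chromosome 12 from 562008 to 563390, so the chromosome number and the end in the table disagree with the name. Whether the values listed for CLB4 belong to this gene or to another locus cannot be told from the table, and every CLB4 value and CLB4 to CLB3 ratio below carries that doubt.

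**Figure D1:**
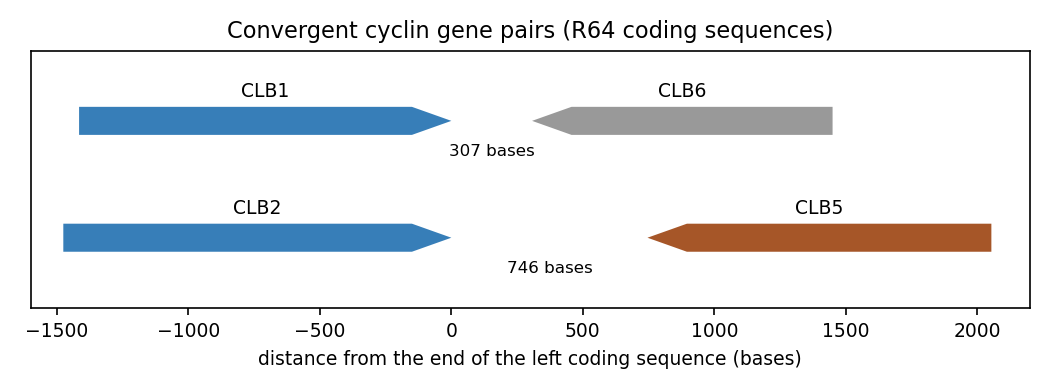
Coding sequences of the convergent neighbours CLB1 and CLB6, and CLB2 and CLB5, drawn to scale from the R64 annotation, with distance in bases from the end of the left coding sequence on the x axis. Arrows point in the direction of transcription, and the coding ends are 307 bases apart in the upper pair and 746 in the lower.

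Upstream of CLB1 and CLB2 stands a further shared element, shown because it is the kind of site through which Mcm1 and Fkh2 act. It was written as CC, any 6 bases and GG, followed after 4 to 8 bases by TCAACA, after reading these sequences, so its presence in these genes is no finding. It starts 616 bases before the start codon of CLB1 and 687 bases before that of CLB2. Capitals mark the fixed bases of the pattern.
CLB1, chr7:703012-703050, plus strand, R64: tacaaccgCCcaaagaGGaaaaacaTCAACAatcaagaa
CLB2, chr16:770958-770995, plus strand, R64: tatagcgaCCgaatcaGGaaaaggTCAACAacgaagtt
On either strand of the 800 bases upstream, the pattern was present in 31 of 5997 coding genes (0.517%), and it was absent from that stretch of CLB3, CLB4 and CLB5. Because the pattern was written to match CLB1 and CLB2, neither this share nor that absence is a finding about these genes. A match is only a run of letters, and binding was not measured.

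CLB1, a mitotic cyclin, had 36.2 units in WT, 12.5 in mtr3-1, 18.0 in mtr4-1 and 27.4 in dis3mtr. The WT library was the highest and every mutant was lower, the ring mutant most of all. As a share of WT, CLB1 was at 34.5% in mtr3-1, 49.9% in mtr4-1 and 75.7% in dis3mtr. It ranked 128th from the top of the 130 features in mtr3-1 and 124th in mtr4-1, but 106th in dis3mtr. It was the only member at 50% of WT or less, in mtr3-1 and in mtr4-1, where 6.92% and 5.38% of all features were, and in dis3mtr, where 7.69% of all features were that low, no member was. Between its highest and lowest library lay a ratio of 2.90, the 19th widest of the 130 features, whose median ratio was 1.74.

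CLB2, its close relative and the principal mitotic cyclin, had 11.9 units in WT, 11.7 in mtr3-1, 12.2 in mtr4-1 and 23.9 in dis3mtr. WT, mtr3-1 and mtr4-1 were close together and dis3mtr stood alone above them. The percents of WT were 98.2% in mtr3-1, 103% in mtr4-1 and 201% in dis3mtr. A value of 200% or more was reached by 19.2% of all features in dis3mtr, where CLB2 ranked 25th. In mtr3-1 and mtr4-1 no member reached it, against 6.15% and 3.08% of all features.

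CLB3, a cyclin of S phase and early mitosis, had 31.4 units in WT, 31.8 in mtr3-1, 25.02 in mtr4-1 and 40.4 in dis3mtr, that is 101%, 79.7% and 129% of WT. Its relative CLB4 had 11.7, 12.4, 11.9 and 13.9 units in the same order of libraries, or 105%, 101% and 118% of WT. Both genes had their highest value in dis3mtr, as did 52.3% of all features. The values listed for CLB4 varied least of the members, with a ratio of 1.18 between its highest and lowest library, the 128th widest of 130.

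CLB5, the S-phase cyclin of the set, had 13.8 units in WT, 12.7 in mtr3-1, 10.4 in mtr4-1 and 12.1 in dis3mtr. The percents of WT were 92.2%, 75.9% and 88.1%. It was the one member besides CLB1 with its highest value in WT, which 30.8% of all features shared, and its ratio of highest to lowest library was 1.32. CLB5 faces CLB2 on the chromosome, and in dis3mtr CLB5 was at 88.1% of WT and CLB2 at 201%. The ratio of CLB2 to CLB5 in dis3mtr was 2.28 times that in WT. Of all pairs of features, 39.8% were 2-fold or more from their WT ratio in dis3mtr. Whether reads of the facing genes were mixed was not tested.

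**Figure D2:**
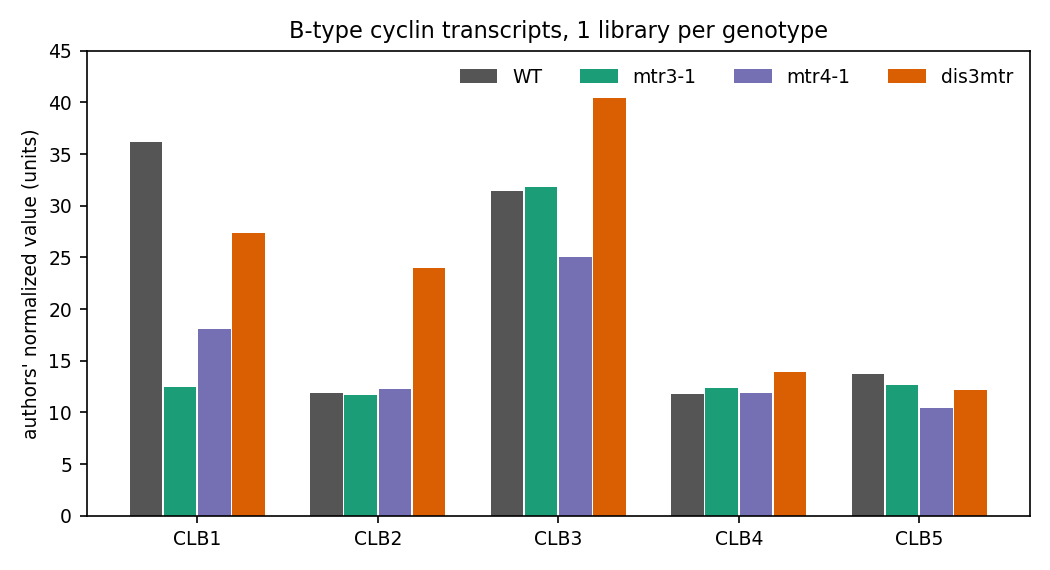
Authors' normalized value of each B-type cyclin gene (y axis, linear from 0) in the 4 libraries, 1 bar per library with no error bar because there was 1 library per genotype. CLB1 is highest in WT at 36.2 units, and CLB2 is near 12 units in WT, mtr3-1 and mtr4-1 and at 23.9 in dis3mtr; bars should be compared within a gene.

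The authors called a feature increased from 15% above WT and decreased from 15% below it, which is 85% of WT. By these thresholds, CLB2, CLB3 and CLB4 counted as high in dis3mtr and CLB1 as low. These are 3 and 1 of the 5 members, where 46.9% of all features were high and 23.1% low. In mtr4-1 no member was high and CLB1, CLB3 and CLB5 were low, 3 of 5 against 57.7% of all features (14.6% were high). In mtr3-1 CLB1 alone was low and no member was high, against 33.1% low and 27.7% high among all features. The members' median was 98.2%, 79.7% and 118% of WT in mtr3-1, mtr4-1 and dis3mtr, near the medians of all features of 99.2%, 81.5% and 112%. By these medians, then, the 5 cyclins as a group stood near the tables as a whole, and the departures were those of single genes. The dis3mtr median of 118% is the value listed for CLB4, which is also 1 of the 3 high members there. Both therefore carry the doubt about that entry, and no count was made without it.

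The median log2 ratio to WT over the 130 features was -0.30 in mtr4-1, 0.17 in dis3mtr and -0.01 in mtr3-1. These features come from chosen GO terms, so a shift of the whole library was not measured. Relative to the median feature, CLB1 stayed low in every mutant, at 34.8% in mtr3-1, 61.2% in mtr4-1 and 67.3% in dis3mtr. CLB2 was at 99.0%, 126% and 179%, so it also passed the upper threshold in mtr4-1. CLB3 (102%, 97.9% and 114%) was then inside the thresholds throughout. CLB4 passed the upper one only in mtr4-1, at 125%, and CLB5 the lower one only in dis3mtr, at 78.3%. How many of all features passed the thresholds after this division was not computed, so how common such calls are is not known.

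**Figure D3:**
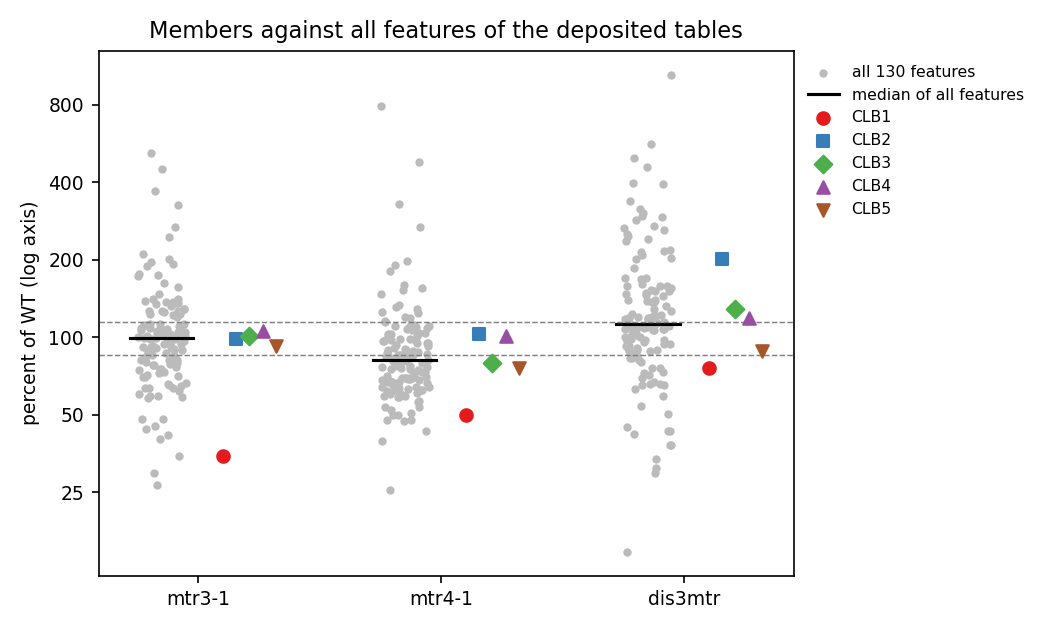
Percent of WT (log axis) of the 5 cyclin genes (coloured symbols) and of all 130 features (grey points) in each mutant library; the black bar is the median of all features and the dashed lines are the authors' thresholds, 15% above and below WT. CLB1 is the lowest member in each mutant, at 34.5%, 49.9% and 75.7%, and CLB2 in dis3mtr is the highest member value, at 201%.

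The paralog pairs were compared by the ratio of one relative to the other within a library, in which a scaling factor of the library cancels. The ratio of CLB2 to CLB1 was 0.329 in WT, 0.936 in mtr3-1, 0.679 in mtr4-1 and 0.873 in dis3mtr. It was thus higher in every mutant than in WT, by 2.84 times in mtr3-1, 2.06 times in mtr4-1 and 2.65 times in dis3mtr. These 3 comparisons share the single WT library. Differences of 2-fold or more are common in these tables: 25.2% of the 8385 pairs of features were that far from their WT ratio in mtr3-1, 18% in mtr4-1 and 39.8% in dis3mtr.

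The values behind these ratios differed between mutants. In mtr3-1 and mtr4-1, CLB2 was within 5% of WT and CLB1 below WT, and the summed value of the pair was 50.3% and 63.0% of WT. In dis3mtr, CLB2 was above and CLB1 below WT, and the sum was 107% of WT, with CLB2 giving 46.6% of it against 24.8% in WT. The sum was added after seeing the values and weighs both genes by the authors' units, on coding lengths of 1416 and 1476 bases.

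The ratio of CLB4 to CLB3, with CLB4 as listed, varied less, with 0.374 in WT, 0.388 in mtr3-1, 0.476 in mtr4-1 and 0.344 in dis3mtr. Against WT it was 1.04, 1.27 and 0.919 times as high in mtr3-1, mtr4-1 and dis3mtr, all within 2-fold. The 3 mutant ratios spanned 1.39-fold for CLB4 to CLB3 and 1.38-fold for CLB2 to CLB1. What set the pairs apart was WT, whose CLB2 to CLB1 ratio lay 2.06-fold below the nearest mutant. Of all pairs of features, 10.1% had a WT ratio at least 2-fold outside the range of the mutants.

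**Figure D4:**
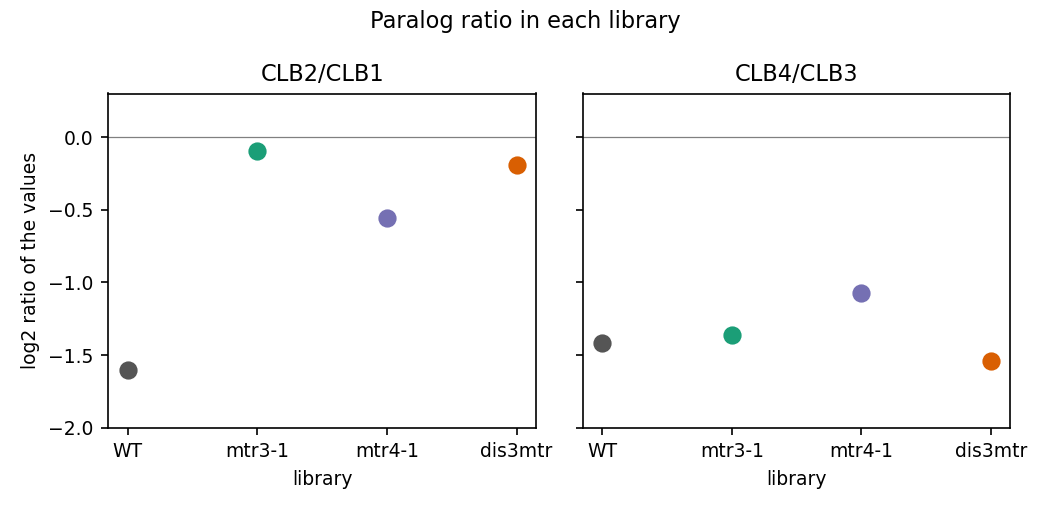
Log2 of the ratio of the values of CLB2 to CLB1 (left) and CLB4 to CLB3 (right) in each library, 1 point per library. The WT point of CLB2 to CLB1, at -1.60, lies below the mutant points at -0.10, -0.56 and -0.20, while the 4 points of CLB4 to CLB3 lie between -1.54 and -1.07.

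Set against mtr3-1 with WT left out, dis3mtr had more of both mitotic cyclins. CLB1 was 2.19 times as high in dis3mtr as in mtr3-1 and CLB2 2.05 times, the 10th and 13th highest of 130 features. The relatives were thus higher by nearly equal factors, whereas against WT they lay on opposite sides of 100% in dis3mtr. The ratio of CLB2 to CLB1 in dis3mtr was 0.933 times that in mtr3-1, and 90.1% of all pairs of features differed at least as much. CLB3 was 1.27 times, CLB4 1.12 times and CLB5 0.956 times as high, where the median of all features was 1.23. A value at least 15% higher in dis3mtr was found for 3 of 5 members and 55.4% of all features, and none of the members was at 0.85 or less, against 19.2%. Of all pairs of features, 22.8% were 2-fold or more apart in this comparison, 25.4% in dis3mtr against mtr4-1 and 16.1% in mtr3-1 against mtr4-1.

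Against mtr4-1, dis3mtr values were 1.52 times as high for CLB1, 1.95 for CLB2, 1.61 for CLB3, 1.17 for CLB4 and 1.16 for CLB5, around a median of 1.40 for all features. All 5 members were at least 15% higher in dis3mtr, as were 74.6% of all features, and 11.5% were at 0.85 or less. Divided by that median, CLB2 was at 1.39 and CLB1 at 1.08, and CLB4 and CLB5 turned to the other side, at 0.832 and 0.828. The ring and helicase mutants differed mainly in CLB1, which in mtr3-1 was 0.693 times its value in mtr4-1, 120th of 130, against a median of 1.17. CLB2 was at 0.955 in that comparison, CLB3 at 1.27, CLB4 at 1.04 and CLB5 at 1.21. A ratio of 0.85 or less was found for 13.8% of all features there, and 53.8% were at least 15% higher in mtr3-1, as were CLB3 and CLB5.

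**Figure D5:**
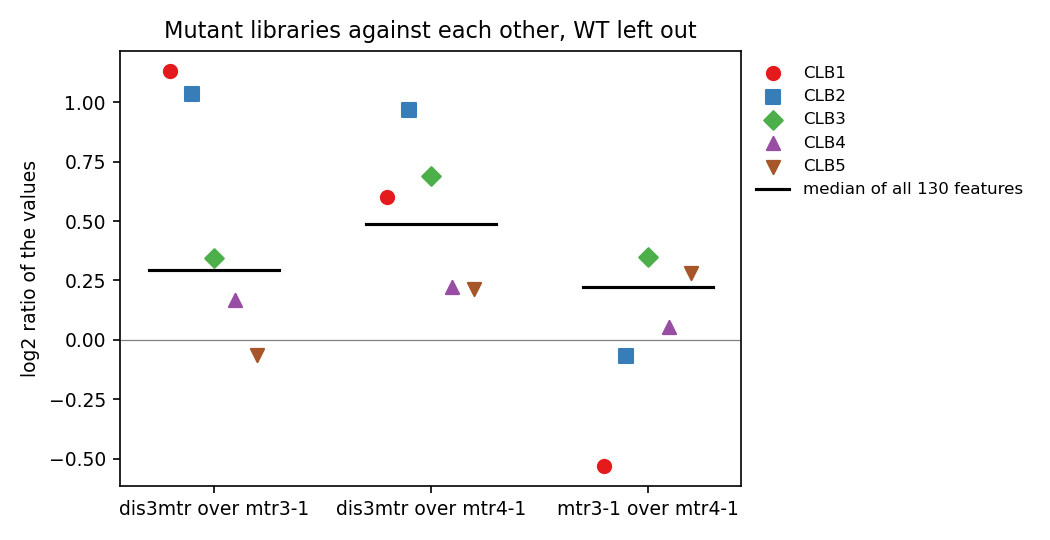
Log2 ratio between mutant libraries for the 5 cyclin genes (symbols) and the median of all 130 features (black bars), without the WT library. CLB1 and CLB2 lie together at 1.13 and 1.03 in dis3mtr over mtr3-1, against a median of 0.29, and CLB1 is lowest in mtr3-1 over mtr4-1, at -0.53.

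The features with the most similar profile over the 4 libraries were found by the distance between log2 values centred on each gene's mean. Nearest to CLB1 were PAC10, a prefoldin subunit (distance 0.35), BIM1, a microtubule plus-end protein (0.56), and MOB2, a partner of a kinase in polarity and cell separation (0.64). CLB2 lay nearest to KEL2, a kelch-domain protein (0.17), the spindle position kinase KIN4 (0.29) and PPH21, a catalytic subunit of protein phosphatase 2A (0.32). KEL2 was at 106%, 111% and 237% of WT in mtr3-1, mtr4-1 and dis3mtr.

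CLB3 lay close to CCT4 (0.12), a subunit of the chaperonin that folds tubulin and actin, to the α-tubulin gene TUB3 (0.13) and to CDC42 (0.16), a GTPase of cell polarity. CLB4, as listed, lay nearest to RSC9 (0.07) of the chromatin remodeler RSC, SGO1 (0.12), the shugoshin, and CDC26 (0.15) of the APC/C. CLB5 lay nearest to CCT5 (0.09), another chaperonin subunit, UBC9 (0.09), the SUMO-conjugating enzyme, and SFI1 (0.19) of the spindle pole body. No cyclin was among the 3 nearest of another, which with 129 other features to choose from is by itself no sign that they differ. From CLB1, CLB2 was the 67th nearest of 129 features at a distance of 1.19, and from CLB3, CLB4 was the 28th at 0.35. With 4 libraries these profiles are short, and distances among nearly flat genes are small by nature.

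The genes that act on the cyclins and Cdc28 were read from a list of 45, of which 24 had values. They gave 26 features, because APC4 and CDC26 were each listed under a second identifier, YDR118W-A and YFR036W-A, of uncertain identity. Neither Cdc28 itself, nor the G1 cyclins, nor CLB6, nor the transcription factors were among them. The inhibitor genes SWE1 and SIC1 had no values either, nor had CDC5 and PDS1. In dis3mtr 16 of the 26 features passed the upper threshold and 2 the lower one, where 46.9% and 23.1% of all features did, and their median was 129% against 112%. Without the uncertain entries, 14 of 24 were high and the median was 120%. In mtr3-1, 12 were high and 7 low, against 27.7% and 33.1% of all features, with medians of 108% and 99.2%. In mtr4-1, 5 were high and 13 low, against 14.6% and 57.7%, with medians of 86.0% and 81.5%.

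Among these, the APC/C activator CDC20 was at 15.6 units in WT, 11.9 in mtr3-1, 13.1 in mtr4-1 and 88.1 in dis3mtr, and CDH1 at 28.7, 24.3, 17.03 and 41.7. Like CLB2, both had their highest value in dis3mtr, as did 52.3% of all features. Unlike CLB2, both were below 85% of WT in mtr3-1 and mtr4-1. At 85% or less there were 33.1% and 57.7% of all features in these mutants. CDH1 in mtr3-1, at 84.8%, and CDC20 in mtr4-1, at 84.0%, lay just under that line. The latter was above the mtr4-1 median of all features, 81.5%. Of the 15 APC/C subunit features, 10 were high and 1, APC5 at 59.0%, was low in dis3mtr, where 46.9% and 23.1% of all features were. The 10 include both entries of uncertain identity, YDR118W-A at 293% and YFR036W-A at 1048%, the latter on a WT value of 0.376 units. HSL1, which with HSL7 leads to the removal of the Cdc28 inhibitor Swe1, was at 267%, 198% and 399% of WT in mtr3-1, mtr4-1 and dis3mtr. HSL7 was at 176%, 120% and 314%, so both were above the upper threshold in every mutant. MIH1, the phosphatase that opposes Swe1, was at 122%, 84.2% and 107%. CDC14, the phosphatase that ends mitosis by reversing Cdc28 phosphorylation, was at 70.7%, 63.5% and 95.8% of WT in mtr3-1, mtr4-1 and dis3mtr. The other measured genes of mitotic exit and separation were not low. CDC15 was at 140%, 103% and 114.98% in the same order, and ESP1 at 111%, 111% and 139%. Of the spindle checkpoint genes, BUB1 was at 123%, 156% and 251%, on 2.85 units in WT. MAD2 was at 60.3%, 63.9% and 65.5%, and MPS1 at 104%, 87.6% and 106%.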

How the data were processed

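Per the labels' protocols, poly(A)-selected RNA of 4 genotypes, 1 library each, was sequenced in a single Illumina GAIIx lane and split by barcode. Bowtie and the build sacCer2 are named in the submitters' processing notes. The deposited values are a normalized signal per gene and library and that signal as a percent of WT, per the file headers. The sources used here do not say how the authors counted and normalized reads. The values are not counts, so depth is unknown and no interval could be given. Percents recomputed from the signal differed from the deposited ones by at most 1.14e-13.

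From the 190 entries, 175 had values, in 130 distinct sets. Ratios, ranks, medians and distances were computed with Python 3.11.15 and NumPy 2.4.6, and were tested on simulated data. Sequences were compared with Biopython 1.88 in the RefSeq R64 genome, which is not the authors' build, so R64 coordinates are given for sequences and CLB4 alone. No test was made, since each genotype had 1 library. All members were named, with the 3 most similar features of each and the pathway list. Alternatives were other thresholds, division by the median ratio, a pseudocount of 1 unit, a WT value of 5 units or more and, for the pathway list, entries of uncertain identity left out. Members and lists were chosen with earlier results of these data known.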

Additional observations from a re-analysis of the deposited data

Results flagged for a closer look

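CLB3 was at 129% of WT in dis3mtr and 79.7% in mtr4-1, past the authors' thresholds on opposite sides, a ratio of 1.61 between these mutants. This difference was not tested, for want of replicates. After division by the median ratio of each library to WT, CLB3 was at 114% and 97.9%, inside the thresholds in both.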

How the results depend on the processing

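With no replicate and no counting error, a value counted as kept when it stayed in the same class of the thresholds (2-fold for ratios of relatives), and a count when it moved by at most 1.5 times. No paired analysis was possible because each genotype had 1 library. A pseudocount of 1 unit kept all 27 values in their classes, by the authors' thresholds for percents and 2-fold for ratios. The CLB2 to CLB1 ratio in mtr4-1 went from 2.06 to 2.003 times that in WT, and so stayed only just above 2-fold. The pseudocount did not keep the calls at 200% and 50% of WT that lay near those lines. CLB2 in dis3mtr went from 201% to 193%, and CLB1 in mtr4-1 from 49.9% to 51.2%. Division by the median ratio put them at 179% and 61.2%. Words of 36 bases or up to 3 mismatches kept the absence of shared words. Both were added to the first list of settings, the mismatches after seeing the data. With thresholds of 150% and 67%, and also with 200% and 50%, 1 member was high and 0 low in dis3mtr, and 1 was low in mtr4-1. At 200% and 50%, 19.2% of all features were high and 7.69% low in dis3mtr, and 5.38% were low in mtr4-1. The shares of all features at 150% and 67% were not computed.

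Division by the median ratio to WT gave 1 high and 2 low members in dis3mtr and 2 high and 1 low in mtr4-1. The shares of all features past the thresholds after this division were not computed, so these counts have no background. In mtr4-1 the percents became 126% for CLB2, 97.9% for CLB3, 125% for CLB4 and 93.2% for CLB5, and in dis3mtr 114% for CLB3, 105% for CLB4 and 78.3% for CLB5. Between mutants, division by the median ratio turned CLB4 and CLB5 in dis3mtr over mtr4-1 to 0.832 and 0.828. It left CLB1 there at 1.08, CLB3 and CLB5 in dis3mtr over mtr3-1 at 1.03 and 0.779, and CLB2, CLB3 and CLB5 in mtr3-1 over mtr4-1 at 0.819, 1.09 and 1.04. All these shifts follow from the division itself.

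In the pathway list, division gave 11 high and 8 low features in mtr4-1 and a median of 114.9% in dis3mtr. Here too the shares of all features after division were not computed. With a WT value of 5 units or more, 3 features of the list were high in mtr4-1, where 11.2% of all such features were, and the list's median was 84.3%. The features left out were BUB1, at 2.85 units in WT and 156% in mtr4-1, and YFR036W-A, at 0.376 units and 793%. Both were high calls on low WT values. Leaving out the entries of uncertain identity kept all 9 values of the list, with a median of 120% in dis3mtr. Depth, which sets the error of low values such as those near 12 units, is unknown.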
